A study of Mus musculus with 12 samples.

Results

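The unfolded protein and amino acid stress response was followed through 33 genes in mouse lung after ventilation at high tidal volume. The genes were taken by name as lists, with no threshold on their values: 12 of the Atf4 arm, 4 stress sensors and their transcription factors, and 17 of the Xbp1 and Atf6 arm, which were 13 chaperones and folding factors and 4 genes of endoplasmic reticulum (ER) degradation. They were represented by 82 of 45037 probe sets. All 33 passed the filter on low values, through 69 of the 82 probe sets, and so were among the 10996 genes tested.

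Lungs came from mice aged 8 to 12 weeks, 3 per group, with 1 Affymetrix array each. The groups were knockout VILI and knockout SB, both Gadd45a knockout, then wild type VILI and wild type SB. VILI is ventilator-induced lung injury, and here 4 hours of ventilation with breaths of 30 ml/kg, 65 of them a minute. SB is not spelled out in the labels, and the sample descriptions call animals of all 4 groups controls, so groups were taken from the titles. The knockout is written GADD45-/- or GADD-/- in the labels and Gadd45a in the series title; the sources used here do not give the deleted part, the strain or the sex. All groups were kept under the same standard light and humidity conditions. Values are the authors' normalized log2 expression values, and every change below is a difference on this log2 scale, where 0 means no change.

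Cells answer misfolded protein in the ER and shortage of amino acids through partly shared machinery. The ER sensor kinase PERK (Eif2ak3) and related kinases that sense amino acid shortage and other stresses phosphorylate the initiation factor eIF2, which lowers general translation while the transcription factor Atf4 is translated. Atf4 switches on genes for amino acid synthesis and import. The other ER sensors, Ire1 (Ern1) and Atf6, act through the spliced form of Xbp1 and through cleaved Atf6 itself, and switch on ER chaperones, folding enzymes and the degradation machinery. The arrays read mRNA by gene, so Xbp1 splicing, Atf6 cleavage and translation of Atf4 were not analysed here.

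Across genes, correlations between arrays within a group were 0.963 to 0.995. Replicate 3 of knockout VILI and replicate 3 of knockout SB stood apart: the mean of 9 measured B cell and plasma cell markers was 9.65 and 8.81 on them, against 5.69 to 7.39 on the other arrays, so counts below are also given without both. The list these markers come from also names Derl3 and Fkbp11, which are in the wider list of Xbp1 and Atf6 targets below, so these lists overlap. Neutrophil markers (12 of 15 measured) averaged 9.16 to 10.5 in knockout VILI, against 6.99 to 7.44 in knockout SB, and 8.83 to 9.68 in wild type VILI, against 6.45 to 6.90 in wild type SB. Endothelial markers (12 of 12) averaged 10.9 to 11.4 and 11.6 to 11.7 in knockout VILI and SB, and 11.3 to 11.4 and 11.7 to 11.8 in wild type VILI and SB. Type II epithelial markers (9 of 10) averaged 12.67 to 13.18 and 13.16 to 13.24 in knockout VILI and SB, and 12.95 to 13.15 and 13.18 to 13.27 in wild type VILI and SB. In whole lung, fewer cells of a type and less RNA per cell cannot be told apart, and the part of these cell markers in the changes below was not tested. Gadd45a itself averaged 5.75 ± 0.34 in knockout VILI and 9.95 ± 0.33 in wild type VILI, and 5.20 ± 0.84 in knockout SB and 8.94 ± 0.49 in wild type SB (SD, n = 3 each), so it was low in every knockout group.

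Both arms are known to act through short promoter elements, which are shown here as background. The ER stress element, bound by Atf6 and Xbp1 with NF-Y, is CCAAT, 9 bases of any kind, then CCACG, and the C/EBP-ATF response element, bound by Atf4 with C/EBP factors, was searched as TGATGNAA. Both were searched on both strands of RefSeq promoter windows, 250 bases before to 50 after each start (build GRCm38.p6). A window was found for 29 of the 33 genes, all but Slc7a5, Atf6, Hyou1 and Manf. The ER stress element was present for 7 of 11 chaperones and folding factors, 1 of 4 degradation genes, 0 of 11 Atf4 arm genes and 0 of 3 sensors, against 37 of 27025 genes with a window (0.137%). The C/EBP-ATF element was present for 3 of 11 Atf4 arm genes (Asns, Trib3 and Chac1), 1 of 4 degradation genes (Herpud1) and 0 of the 14 others, against 4.51% of all genes. No member's window held both. Of the Atf4 arm genes that rose after VILI (below), Asns held a match. Mthfd2, Psat1, Slc7a1 and Atf4 held none, and Slc7a5 had no window. Trib3 and Chac1 held a match and were not called. A match is a description of letters, not a shown binding site.

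The ER stress elements are printed as they read on the strand of the gene, the fixed letters in capitals. Those read from the opposite strand begin with CGTGG and end with ATTGG.
Hspa5, chr2:34772025-34772043 (65 bases before the start): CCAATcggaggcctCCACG
Hsp90b1, chr10:86705638-86705656 (212 bases before the start): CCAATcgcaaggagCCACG
Hsp90b1, chr10:86705533-86705551 (107 bases before the start): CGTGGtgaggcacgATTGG
Calr, chr8:84847075-84847093 (162 bases before the start): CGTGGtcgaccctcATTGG
Canx, chr11:50325800-50325818 (145 bases before the start): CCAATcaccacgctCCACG
Pdia6, chr12:17266491-17266509 (98 bases before the start): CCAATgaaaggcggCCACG
Creld2, chr15:88819520-88819538 (126 bases before the start): CGTGGcgagcctcaATTGG
Dnajc3, chr14:118937827-118937845 (105 bases before the start): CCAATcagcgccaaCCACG
Syvn1, chr19:6046532-6046550 (44 bases before the start): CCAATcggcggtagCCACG

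The C/EBP-ATF elements of Asns, Chac1 and Herpud1 are printed in the same way; the letters of Chac1 and Herpud1 are the reverse complement of the element. The match of Trib3 lies after the start and is not printed.
Asns, chr6:7693225-7693232 (23 bases before the start): TGATGaAA
Chac1, chr2:119351049-119351056 (193 bases before the start): TTgCATCA
Herpud1, chr8:94386317-94386324 (112 bases before the start): TTgCATCA

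The 250 bases before the start of 3 genes show the elements in place, for Asns as the gene of the Atf4 arm that rose and held one, and for Hspa5 and Hsp90b1 as the central ER chaperones (capitals mark the fixed letters of the elements).
Asns, chr6:7693210-7693459, minus strand: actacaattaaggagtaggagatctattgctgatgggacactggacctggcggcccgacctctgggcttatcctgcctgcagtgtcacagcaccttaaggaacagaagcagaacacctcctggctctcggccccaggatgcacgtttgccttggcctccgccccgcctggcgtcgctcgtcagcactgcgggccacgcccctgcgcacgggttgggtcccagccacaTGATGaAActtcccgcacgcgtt
Hspa5, chr2:34771840-34772089, plus strand: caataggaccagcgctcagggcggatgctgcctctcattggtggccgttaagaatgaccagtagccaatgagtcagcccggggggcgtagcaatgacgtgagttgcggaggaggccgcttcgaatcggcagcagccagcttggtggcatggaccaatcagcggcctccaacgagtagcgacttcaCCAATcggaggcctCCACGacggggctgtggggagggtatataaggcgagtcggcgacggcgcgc
Hsp90b1, chr10:86705445-86705694, minus strand: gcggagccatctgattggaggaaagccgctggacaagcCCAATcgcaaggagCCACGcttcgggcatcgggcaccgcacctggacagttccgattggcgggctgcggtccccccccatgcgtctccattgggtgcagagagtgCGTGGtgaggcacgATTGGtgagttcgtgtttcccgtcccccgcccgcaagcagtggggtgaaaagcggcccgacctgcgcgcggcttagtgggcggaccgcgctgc

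VILI raised genes of the Atf4 arm and left the Xbp1 and Atf6 arm without a called change when both genotypes were averaged, 6 VILI arrays against 6 SB arrays. Of 12 Atf4 arm genes, 6 rose and 0 fell: Mthfd2, Psat1, Slc7a1, Slc7a5, Atf4 and Asns. Of the 17 Xbp1 and Atf6 arm genes and of the 4 sensors, 0 rose and 0 fell. A call is an adjusted p below 0.05 in limma, with Benjamini-Hochberg adjustment over all genes tested. Over all genes, 17.8% were called, 8.42% as higher. The median change was 0.58 in the Atf4 arm, 0.23 in the sensors and -0.04 in the Xbp1 and Atf6 arm, against -0.03 over all genes tested. Of the 12 Atf4 arm genes 11 had a positive change, as did 5 of 13 chaperones and 1 of 4 degradation genes, against 46.2% of all genes. Of the 33 genes, 4 had every VILI array above every SB array (Atf4, Mthfd2, Psat1 and Slc7a1), as did 4.26% of all genes. The 6 calls were also made with centred arrays and with quantile normalization, and under both Canx and Herpud1 of the Xbp1 and Atf6 arm were called as lower besides, while the split of calls over all genes, 926 higher and 1032 lower, became 764 higher and 1509 lower when centred and 806 higher and 1389 lower by quantiles. On the same 6 VILI arrays 10 of 12 measured neutrophil markers rose and 6 of 12 endothelial markers fell. Without both knockout replicate 3 arrays 6 members were called, with Syvn1 in place of Slc7a5.

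**Figure D1:**
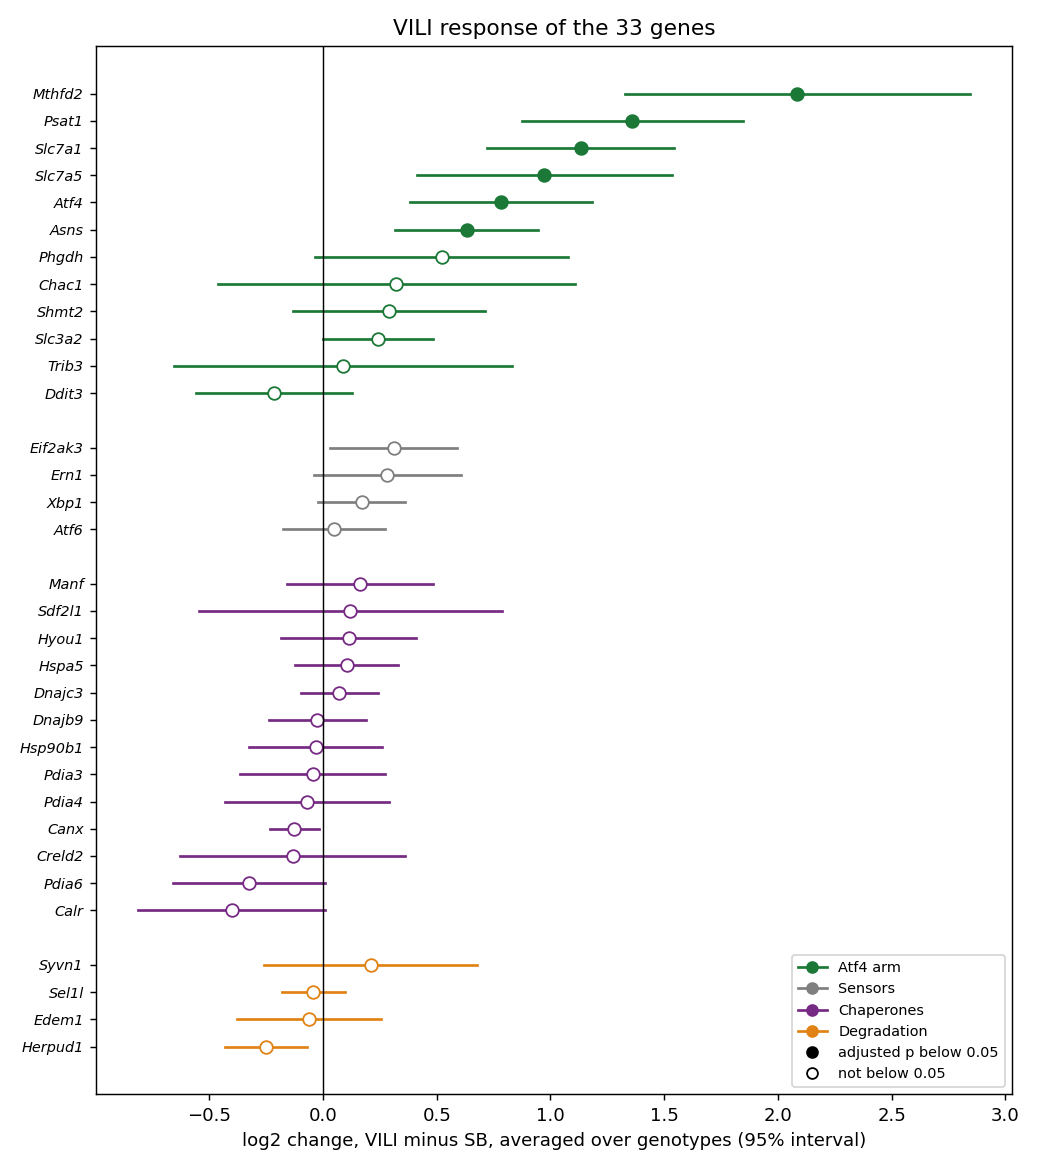
Change after VILI of the 33 genes, averaged over genotypes: each point is a gene's log2 change (VILI minus SB) and each line its 95% interval from limma, coloured by list and filled where the adjusted p was below 0.05. The 6 filled points are all in the Atf4 arm, from 0.63 (Asns) to 2.09 (Mthfd2), and the 17 points of the chaperones and degradation genes lie between -0.40 and 0.21.

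Atf4, the transcription factor that gives the arm its name, read 11.68, 12.14 and 12.10 in knockout VILI, against 11.35, 11.47 and 10.64 in knockout SB, and 11.73, 11.92 and 12.34 in wild type VILI, against 10.83, 11.64 and 11.29 in wild type SB. Each of the 6 VILI arrays lay above each of the 6 SB arrays. The change was 0.78 (SE 0.18, adjusted p = 0.0153), a 1.72-fold rise. Its other kept probe set was at 0.59 and, tested on its own, missed the threshold (adjusted p = 0.0531).

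The largest changes were in enzymes of serine and one-carbon metabolism, which feed nucleotide and glutathione synthesis. Mthfd2, the mitochondrial folate enzyme, read 7.09, 8.17 and 8.51 in knockout VILI, against 5.54, 5.72 and 5.55 in knockout SB, and 7.30, 7.48 and 7.95 in wild type VILI, against 6.55, 6.18 and 4.44 in wild type SB. The 6 VILI arrays lay above the 6 SB arrays, and replicate 3 of wild type SB was the lowest of all and close to the array medians of 4.37 to 4.59, so the size of the change is approximate. The change was 2.09 (SE 0.35, adjusted p = 0.00335), 4.24-fold, and 1.19 on its other probe set. Psat1, the transaminase of serine synthesis, read 7.84, 9.38 and 9.08 in knockout VILI, against 7.08, 6.77 and 6.84 in knockout SB, and 7.91, 8.06 and 8.17 in wild type VILI, against 7.44, 7.08 and 7.08 in wild type SB. Its VILI and SB arrays did not overlap either, with replicates 2 and 3 of knockout VILI highest. It rose by 1.36 (SE 0.22, adjusted p = 0.00309), 2.56-fold, and by 1.23 on its other probe set.

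Other enzymes of the same route did not pass. Phgdh, which makes the first step of serine synthesis, had a change of 0.52 (SE 0.25, adjusted p = 0.173), and Shmt2, the mitochondrial serine hydroxymethyltransferase, one of 0.29 (SE 0.19, adjusted p = 0.318). Phgdh read 7.16, 8.20 and 8.87 in knockout VILI, against 6.87, 7.06 and 7.73 in knockout SB, and 7.07, 7.08 and 7.30 in wild type VILI, against 7.15, 6.96 and 6.76 in wild type SB. Replicates 2 and 3 of knockout VILI stood above the other 10 arrays, and replicate 1 lay among the SB arrays. Without replicate 1 of knockout VILI, Phgdh was called (0.75, adjusted p = 0.0194). The 4 kept probe sets of Phgdh had changes from 0.03 to 0.73, and the 3 of Shmt2 from -0.02 to 0.29.

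Asns, asparagine synthetase and a classic Atf4 target, read 9.07, 9.91 and 9.65 in knockout VILI, against 8.78, 8.87 and 8.58 in knockout SB, and 9.26, 9.15 and 9.44 in wild type VILI, against 8.60, 9.10 and 8.76 in wild type SB. Groups separated within each genotype, but replicate 1 of knockout VILI (9.07) lay just under replicate 2 of wild type SB (9.10). The change was 0.63 (SE 0.14, adjusted p = 0.0139), 1.55-fold, and 0.55 on its other probe set.

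Amino acid importers rose as well. Slc7a1, the carrier of arginine and lysine, read 10.04, 10.46 and 10.54 in knockout VILI, against 9.02, 9.45 and 8.46 in knockout SB, and 9.73, 10.06 and 10.46 in wild type VILI, against 9.16, 9.50 and 8.91 in wild type SB. The 6 VILI arrays were all above the 6 SB arrays, and the change was 1.13 (SE 0.19, adjusted p = 0.00330), 2.19-fold. Slc7a5, the light chain of the carrier of leucine and other large neutral amino acids, read 7.64, 8.30 and 8.06 in knockout VILI, against 6.09, 6.79 and 6.48 in knockout SB, and 6.98, 7.43 and 7.38 in wild type VILI, against 7.38, 7.33 and 5.89 in wild type SB. In wild type the groups overlapped, with replicates 1 and 2 of SB at the level of VILI and replicate 3 of SB far below. Its change was 0.97 (SE 0.26, adjusted p = 0.0251), 1.96-fold, and this call was the one that single arrays decided: adjusted p was 0.0624 without replicate 2 of knockout VILI, 0.0578 without replicate 1 of knockout SB, 0.0633 and 0.0522 without replicates 2 and 3 of wild type VILI, and 0.0662 without both knockout replicate 3 arrays. Slc3a2, the heavy chain that pairs with Slc7a5, had a change of 0.24 (95% interval -0.00 to 0.48, adjusted p = 0.148) and did not pass.

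The genes that mark severe or prolonged stress in this arm were not called. Ddit3, which encodes the proapoptotic factor CHOP, read 7.96, 8.68 and 7.73 in knockout VILI, against 8.55, 8.13 and 8.39 in knockout SB, and 7.73, 7.77 and 7.72 in wild type VILI, against 7.68, 8.03 and 8.10 in wild type SB. Its arrays overlapped, and its change was -0.22 (95% interval -0.56 to 0.13, adjusted p = 0.368), the one negative value of the arm. Trib3, a pseudokinase induced by Atf4 and CHOP, was at 0.09 (-0.66 to 0.83, adjusted p = 0.878). Chac1, which degrades glutathione, was at 0.32 (-0.46 to 1.11, adjusted p = 0.564). Replicate 2 of knockout VILI was the highest array for all 3 genes, at 8.68, 7.49 and 8.35. It also had the highest means of neutrophil markers (10.5), macrophage markers (9.93) and the whole Atf4 arm (0.94). A link between these was not tested. The intervals of Trib3 and Chac1 span more than 1 log2 unit, so the data do not show that these genes stayed level.

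**Figure D2:**
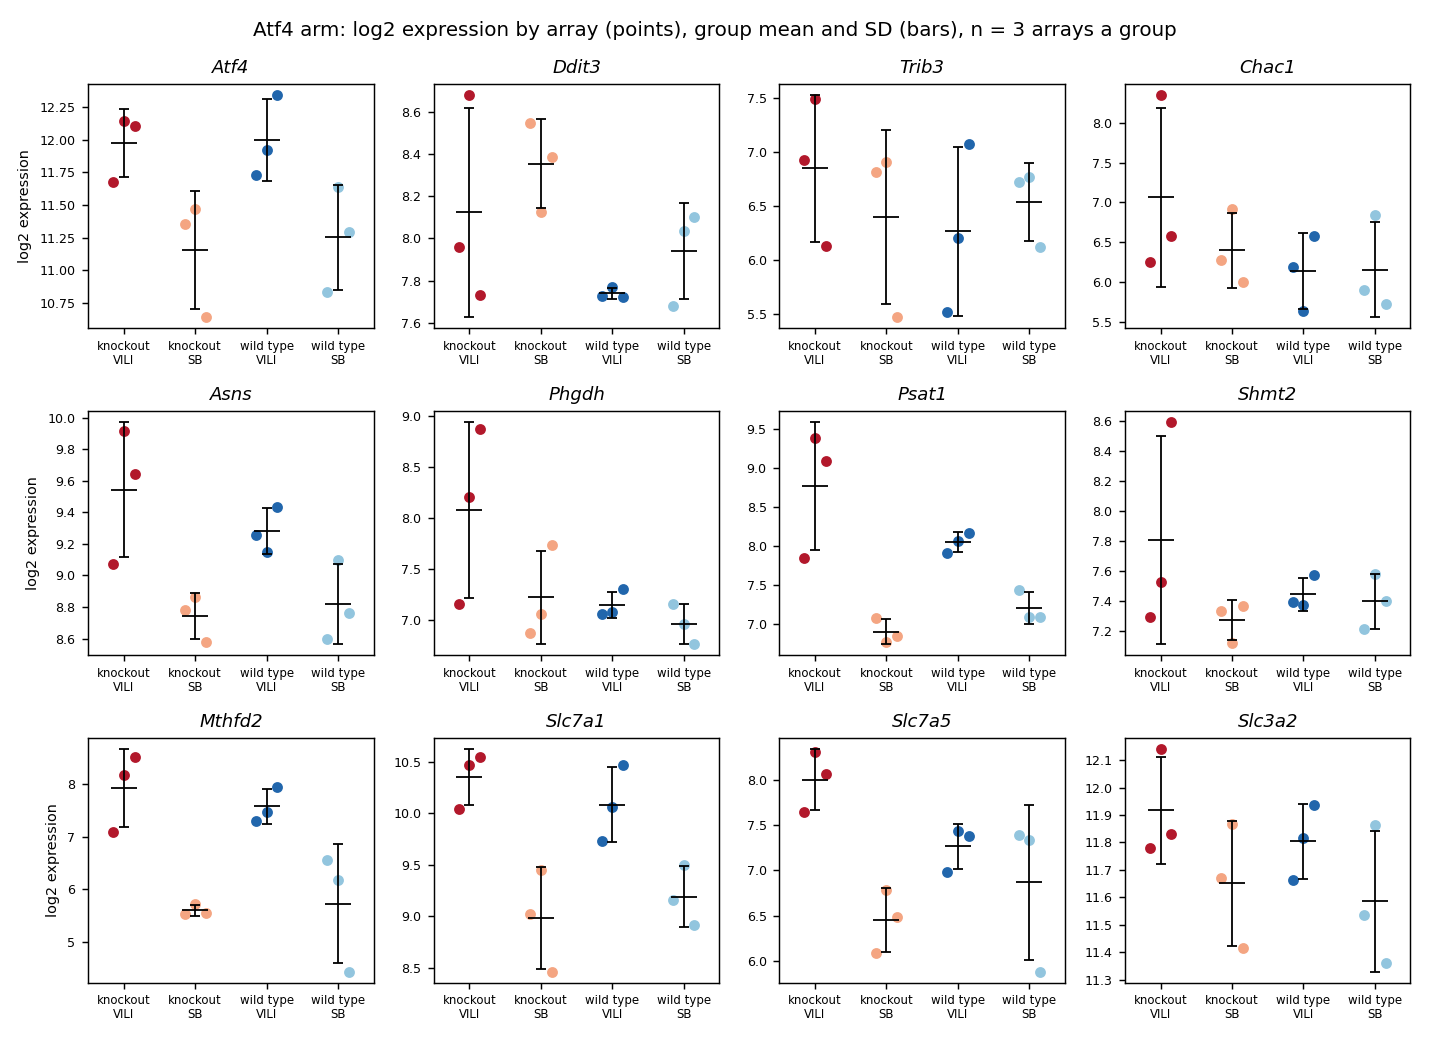
Log2 expression of the 12 Atf4 arm genes on each of the 12 arrays, with a panel per gene, points for arrays, and bars for the group mean and SD (n = 3); the vertical axes differ between panels. VILI arrays lie above SB arrays without overlap for Atf4, Mthfd2, Psat1 and Slc7a1, while Ddit3, Trib3 and Chac1 overlap.

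The sensors showed no called change. Eif2ak3, the PERK kinase upstream of Atf4, was at 0.31 (0.03 to 0.59, adjusted p = 0.110), Ern1, the Ire1 kinase and nuclease, at 0.28 (adjusted p = 0.201), and Atf6 at 0.05 (adjusted p = 0.779). Xbp1 read 12.74, 13.06 and 13.18 in knockout VILI, against 12.77, 12.74 and 12.88 in knockout SB, and 12.76, 12.81 and 12.72 in wild type VILI, against 12.39, 12.68 and 12.79 in wild type SB, and its change was 0.17 (-0.02 to 0.36, adjusted p = 0.194). The 3 kept probe sets of Xbp1 differed in call: when every kept probe set was tested on its own, 1 passed at 0.37 (adjusted p = 0.0164) and the others, at 0.17 and 0.20, did not.

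In the Xbp1 and Atf6 arm, no gene was called in either direction, and 2 of the 17 had an unadjusted p below 0.05, Canx and Herpud1, against 33.9% of all genes. Hspa5, the central ER chaperone BiP, read 13.61, 13.82 and 13.70 in knockout VILI, against 13.64, 13.50 and 13.99 in knockout SB, and 13.94, 13.84 and 13.56 in wild type VILI, against 13.40, 13.50 and 13.81 in wild type SB. The groups overlapped, and the change was 0.10, with a 95% interval of -0.12 to 0.33 (adjusted p = 0.520). For comparison, the interval of Atf4 was 0.38 to 1.18 and that of Slc7a1 0.72 to 1.54. Hsp90b1, the ER form of the Hsp90 chaperone, was at -0.03 (-0.32 to 0.26), Dnajb9, a BiP cochaperone, at -0.02 (-0.24 to 0.19), and Dnajc3, another cochaperone, at 0.07 (-0.10 to 0.24). Hyou1, an ER chaperone of the Hsp70 family, was at 0.11 (-0.18 to 0.41) and the secreted stress protein gene Manf at 0.16 (-0.16 to 0.48).

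The lectin chaperones and disulfide isomerases had negative estimates. Calr, calreticulin, read 12.65, 12.54 and 12.48 in knockout VILI, against 12.87, 12.66 and 13.73 in knockout SB, and 13.22, 13.19 and 12.38 in wild type VILI, against 13.06, 13.27 and 13.28 in wild type SB. Replicate 3 of knockout SB was the highest array and the groups overlapped over both genotypes, and the change was -0.40 (-0.81 to 0.01, adjusted p = 0.157). Canx, calnexin, was at -0.13 (-0.23 to -0.02, adjusted p = 0.0971), and passed as lower with centred arrays (-0.17, adjusted p = 0.0268) and with quantile normalization (-0.17, adjusted p = 0.0275); its 2 other kept probe sets had positive changes of 0.16 and 0.17. Pdia6 was at -0.33 (-0.66 to 0.01, adjusted p = 0.158), Pdia3 at -0.05 and Pdia4 at -0.07, all disulfide isomerases. Sdf2l1 (0.12) and Creld2 (-0.13), ER stress genes of the folding machinery, had wide intervals, -0.55 to 0.79 and -0.63 to 0.36.

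Of the degradation genes, Herpud1, which organises the ER degradation complex, came nearest to a call. It read 12.12, 11.79 and 11.75 in knockout VILI, against 12.20, 12.19 and 12.02 in knockout SB, and 11.76, 11.78 and 11.79 in wild type VILI, against 12.17, 12.09 and 11.82 in wild type SB, lower in wild type VILI than in wild type SB on every array and overlapping in knockout. The change was -0.25 (SE 0.08, adjusted p = 0.0577). It was called as lower with centred arrays (-0.30, adjusted p = 0.0280), with quantile normalization (-0.29, adjusted p = 0.0314), without replicate 1 of knockout VILI (-0.31, adjusted p = 0.0185) and without replicate 3 of wild type SB (-0.30, adjusted p = 0.0378). The ubiquitin ligase gene Syvn1 was at 0.21 (-0.26 to 0.68) and was called as higher without replicate 3 of knockout SB (0.43, adjusted p = 0.0389). Its partner Sel1l was at -0.04 (-0.18 to 0.09), and Edem1, a lectin of the same pathway, at -0.06 (-0.38 to 0.25), with 0.59 on its other kept probe set.

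Averaging the genes of each arm on each array put the contrast on a per animal basis (each gene centred on its mean over 12 arrays, no test). The Atf4 arm stood at 0.10, 0.94 and 0.68 in knockout VILI, against -0.34, -0.20 and -0.55 in knockout SB, and at -0.08, 0.04 and 0.37 in wild type VILI, against -0.28, -0.05 and -0.64 in wild type SB. In knockout every VILI array was above every SB array, and in wild type replicate 1 of VILI lay below replicate 2 of SB. The Xbp1 and Atf6 arm stood at -0.13, -0.08 and 0.03 in knockout VILI, against -0.02, -0.18 and 0.40 in knockout SB, and at 0.28, 0.02 and -0.25 in wild type VILI, against -0.12, -0.02 and 0.08 in wild type SB. It overlapped between VILI and SB in both genotypes. Its highest arrays were replicate 3 of knockout SB and replicate 1 of wild type VILI, with B cell and plasma cell marker means of 8.81 and 6.60. Replicate 3 of knockout VILI, with the highest such mean (9.65), had 0.03. A link between these markers and the mean of the arm was not tested. Within wild type VILI replicate 3 was highest in the Atf4 arm and lowest in the other. The Atf4 arm minus the Xbp1 and Atf6 arm was also taken on each array. This difference was 0.24 to 1.02 in knockout VILI, against -0.94 to -0.02 in knockout SB. In wild type it overlapped, at -0.36 to 0.62 in VILI and -0.72 to -0.03 in SB.

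**Figure D3:**
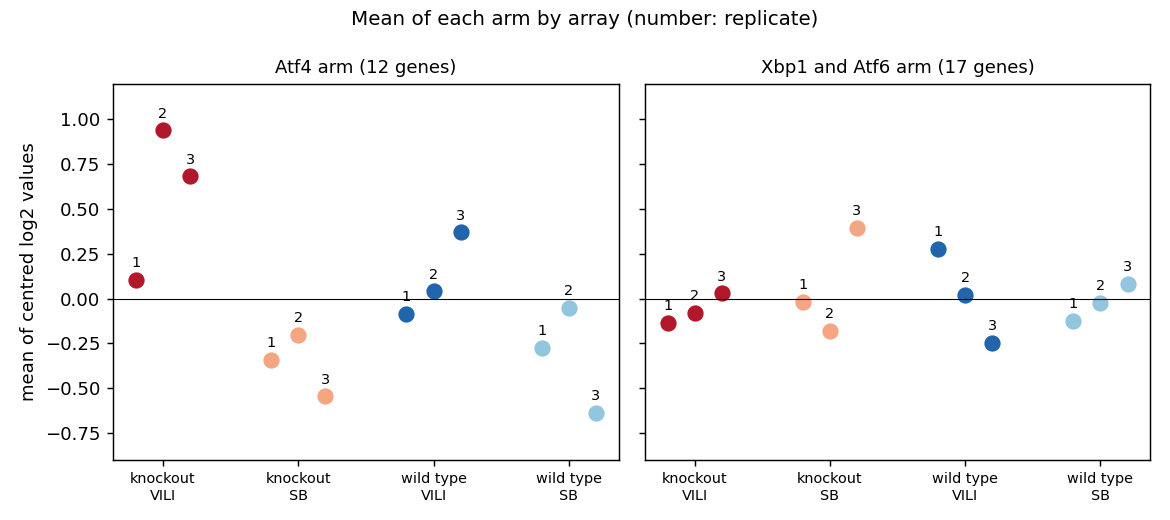
Mean of the centred log2 values of the Atf4 arm (12 genes, left) and of the Xbp1 and Atf6 arm (17 genes, right) on each array, with the replicate number beside each point and the groups along the horizontal axis. Knockout VILI lies at 0.10 to 0.94 in the Atf4 arm, against -0.55 to -0.20 in knockout SB, and the right panel shows overlapping groups.

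The next question was how the response divided between the genotypes. In knockout lungs, 3 VILI against 3 SB arrays, 5 Atf4 arm genes rose and 0 of the 33 fell, where 2.76% of all genes were called as higher and 1.7% as lower. Mthfd2 rose by 2.32 (SE 0.49, adjusted p = 0.0249), Psat1 by 1.87 (SE 0.31, adjusted p = 0.0121), Slc7a5 by 1.55 (SE 0.36, adjusted p = 0.0358), Slc7a1 by 1.37 (SE 0.26, adjusted p = 0.0191) and Asns by 0.80 (SE 0.20, adjusted p = 0.0494). Atf4 was at 0.82 (adjusted p = 0.0956) and Ern1 at 0.65 (adjusted p = 0.0977), with no overlap between groups for either. The median was 0.81 in the Atf4 arm, 0.31 in the sensors and -0.11 in the Xbp1 and Atf6 arm, against 0.00447 over all genes. Without replicate 3 of knockout SB the median of the Xbp1 and Atf6 arm was 0.04. Among the chaperones, Calr (-0.53), Canx (-0.21) and Pdia6 (-0.63) had every knockout VILI array below every knockout SB array, without a call. Such separation downward held for 10.6% of all genes, and upward for 12.9%. Over all genes the calls in knockout were 304 higher and 187 lower, 245 higher and 296 lower when centred, and 271 higher and 258 lower by quantiles; when centred, Canx was called as lower (-0.26, adjusted p = 0.0448).

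Single arrays decided the count in knockout. It was 0 without replicate 2 of knockout VILI, 1 without replicate 3 of knockout VILI, 1 and 2 without replicates 1 and 2 of knockout SB, and 3 without replicate 3 of knockout SB or without any one array of wild type VILI. It was 0 without both knockout replicate 3 arrays and 0 with only the 6 knockout arrays in the fit, at changes of 1.55 for Slc7a5 and 2.32 for Mthfd2 in the second of these.

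In wild type lungs, 0 of the 33 genes were called by limma, where 2.64% of all genes were, and 5 members, all of the Atf4 arm, had an unadjusted p below 0.05, as did 21.2% of all genes. They were Mthfd2 at 1.85 (SE 0.49, adjusted p = 0.0701), Slc7a1 at 0.89 (SE 0.26, adjusted p = 0.0911), Atf4 at 0.75 (SE 0.26, adjusted p = 0.133), Psat1 at 0.85 (SE 0.31, adjusted p = 0.157) and Asns at 0.46 (SE 0.20, adjusted p = 0.222). The same 5 genes had every wild type VILI array above every wild type SB array, a separation that 11.6% of all genes showed. Herpud1 (-0.25) and Sel1l (-0.09) had every wild type VILI array below every wild type SB array, without a call. The share of all genes with such downward separation is not given here. The median was 0.31 in the Atf4 arm, 0.03 in the sensors and -0.02 in the Xbp1 and Atf6 arm, against -0.05 over all genes. The Atf4 arm median was 0.10 without replicate 3 and 0.48 without replicate 2 of wild type SB. Calls over all genes were 149 higher and 141 lower, 132 higher and 210 lower when centred, and 135 higher and 198 lower by quantiles. Psat1 was called with only the 6 wild type arrays in the fit (adjusted p = 0.0361) and without replicate 1 of knockout VILI (adjusted p = 0.0245), Mthfd2 without replicate 1 of wild type SB (2.27, adjusted p = 0.0446), and Slc7a1 without both knockout replicate 3 arrays (adjusted p = 0.0496).

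The difference between these responses was itself tested, and 0 of the 33 genes passed in limma (0 of all 10996 genes did), with 4 members at an unadjusted p below 0.05, Slc7a5, Psat1, Ern1 and Atf6, against 2.62% of all genes. The VILI change of knockout minus that of wild type was 1.15 (95% interval 0.03 to 2.27) for Slc7a5, 1.03 (SE 0.44) for Psat1, 0.74 (0.10 to 1.38) for Ern1 and 0.46 (0.01 to 0.91) for Atf6, each with an adjusted p that rounds to 1. For Atf4 it was 0.07 (-0.72 to 0.87). The knockout value was the larger for 11 of 12 Atf4 arm genes, against 60.5% of all genes. It was also the larger for 4 of 4 sensors, and for 3 of 17 genes of the Xbp1 and Atf6 arm. The median of the difference was 0.27 in the sensors. In the Atf4 arm and in the Xbp1 and Atf6 arm the medians were 0.48 and -0.17, against 0.06 over all genes. The first was 0.28 without replicate 3 of knockout VILI, and the second was -0.03 without replicate 3 and -0.31 without replicate 2 of knockout SB. These are descriptions of the lists, and a difference between genotypes was not shown for any member.

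**Figure D4:**
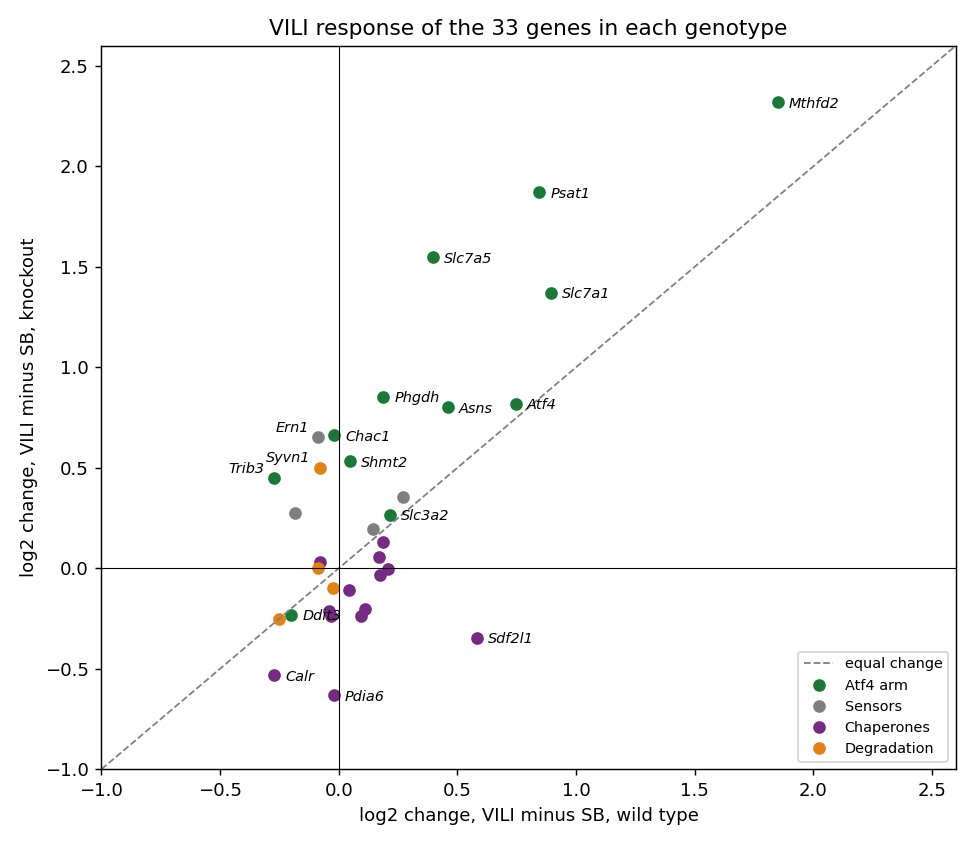
Log2 change after VILI (VILI minus SB) of the 33 genes in knockout lungs (vertical axis) and in wild type lungs (horizontal axis), 3 arrays per group, coloured by list, with a dashed line of equal change. Of the 12 Atf4 arm genes, 11 lie above the line, from Mthfd2 (2.32 and 1.85) to Trib3 (0.45 and -0.27), and 14 of 17 chaperone and degradation genes lie below it.

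Knockout and wild type lungs were then compared within each treatment. In SB, 0 of 33 genes were called by limma, where 0.109% of all genes were, and 1 had an unadjusted p below 0.05, against 10.1% of all genes. It was Ern1, at -0.53 (adjusted p = 0.424). The medians of knockout minus wild type were -0.11 in the Atf4 arm and 0.03 in the Xbp1 and Atf6 arm, against -0.06 over all genes. After VILI, 0 of 33 were called, where 0.1% of all genes were, and 3 had an unadjusted p below 0.05, against 6.88% of all genes. They were Phgdh at 0.93 (adjusted p = 0.673), Psat1 at 0.72 (adjusted p = 0.716) and Canx at -0.20 (adjusted p = 0.586). Psat1 was called without replicate 1 of knockout VILI (1.19, adjusted p = 0.0196). The medians were 0.37 and -0.15, against -0.01 over all genes. With both treatments averaged, 0 of 33 were called, where 0.455% of all genes were, and 5 had an unadjusted p below 0.05, against 14.6% of all genes. These were Ddit3 (0.40), Phgdh (0.59), Edem1 (0.36), Xbp1 (0.21) and Canx (-0.11), with adjusted p of 0.278 to 0.319. These comparisons share their arrays with those of VILI and are not independent of them.

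Other genes tied to Atf4 were read from a list beside the 33. Of 28 measured of 38, 7 rose and 1 fell after VILI averaged over genotypes, against 8.42% and 9.39% of all genes (5 rose and 1 fell without both knockout replicate 3 arrays). Slc7a11, the cystine importer, rose most. It read 6.66, 8.80 and 7.97 in knockout VILI, against 3.88, 4.40 and 4.83 in knockout SB, and 6.51, 7.27 and 7.61 in wild type VILI, against 4.86, 5.14 and 4.75 in wild type SB. The 6 VILI arrays lay above the 6 SB arrays, which were close to the array medians of 4.37 to 4.59, so its change of 2.83 (SE 0.33, adjusted p = 0.000617) is approximate. Atf3, a transcription factor induced by Atf4, rose by 2.47 (SE 0.55, adjusted p = 0.0125), with replicate 2 the highest SB array in both genotypes, at 8.30 in knockout SB and 9.26 in wild type SB, against 5.76 to 6.51 on the other 4 SB arrays. Cth, which makes cysteine, rose by 0.97 (SE 0.16, adjusted p = 0.00284), the stress protein gene Nupr1 by 0.78 (SE 0.12, adjusted p = 0.00251), and Slc38a2, an importer of small neutral amino acids, by 0.63 (SE 0.12, adjusted p = 0.00723). These 5 kept their calls in all 12 fits without 1 array. Ddit4, an inhibitor of mTORC1 that Atf4 and glucocorticoids induce, fell by 0.56 (adjusted p = 0.0118). The list also holds Gadd45a, the deleted gene, at 0.78 (adjusted p = 0.0683).

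The cytosolic aminoacyl-tRNA synthetases, which charge tRNAs and several of which Atf4 controls, also held called rises. Of 18 measured of 20, 6 rose and 0 fell, against 8.42% and 9.39% of all genes, with a median of 0.23 and positive values for 15. Rars rose by 0.51 (adjusted p = 0.0329), Aars by 0.50 (SE 0.08, adjusted p = 0.00335), Gars by 0.45 (SE 0.08, adjusted p = 0.00522), Tars by 0.38 (SE 0.08, adjusted p = 0.00866) and Eprs by 0.34 (adjusted p = 0.0300). Aars read 9.49, 9.74 and 9.46 in knockout VILI, against 9.06, 9.05 and 8.82 in knockout SB, and 9.43, 9.67 and 9.47 in wild type VILI, against 9.16, 9.13 and 9.06 in wild type SB. The 6 VILI arrays lay above the 6 SB arrays. Aars, Gars and Tars kept their calls without any one array, and they were the 3 called without both knockout replicate 3 arrays. Without replicate 2 or 3 of knockout VILI, replicate 2 of wild type VILI or replicate 3 of wild type SB, 3 synthetases were called. Rars lost its call in 8 and Eprs in 7 of 12 fits without 1 array.

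**Figure D5:**
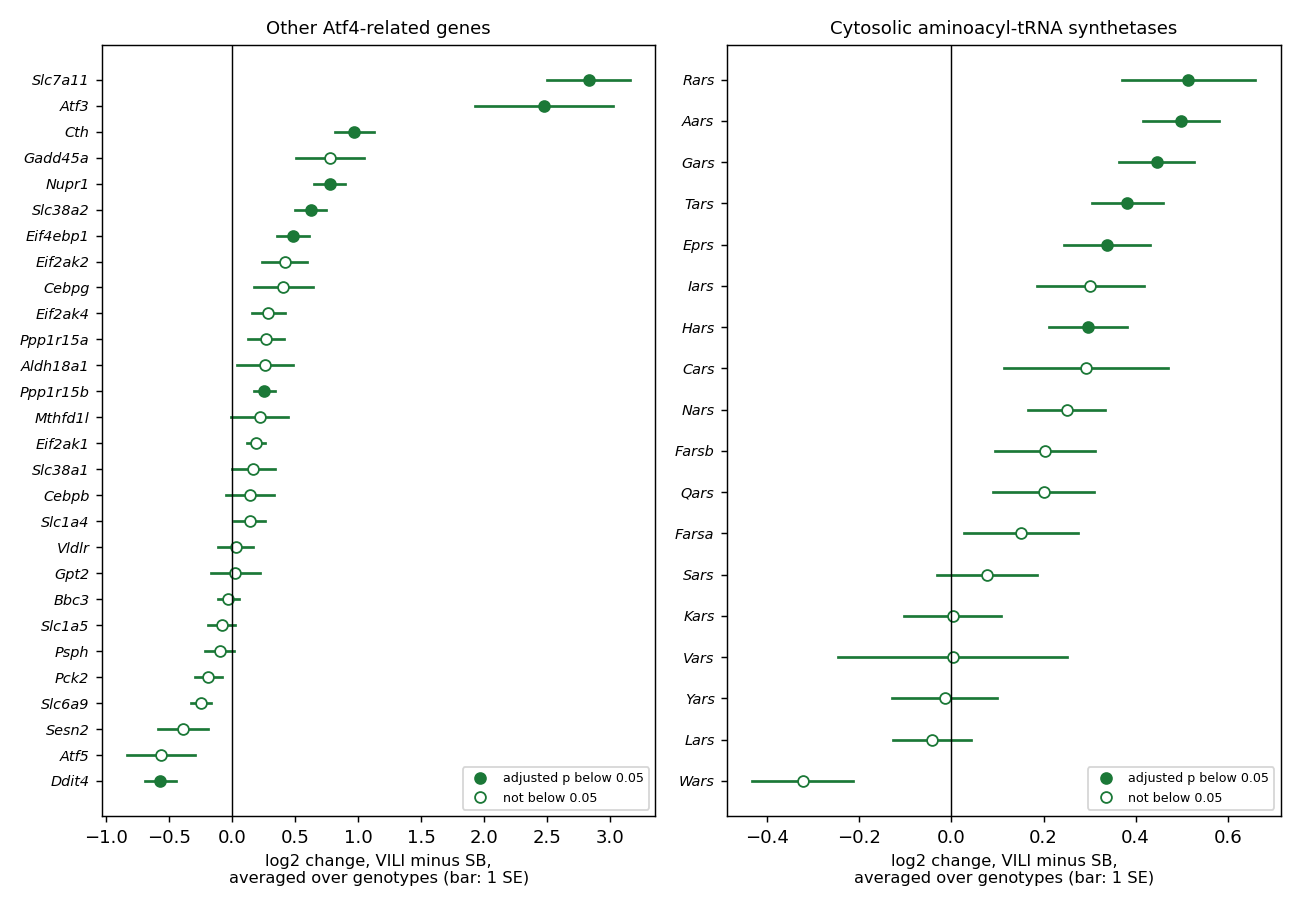
Log2 change after VILI (VILI minus SB, averaged over genotypes; bars 1 SE) of 28 other Atf4-related genes (left) and 18 cytosolic aminoacyl-tRNA synthetases (right), filled where the adjusted p was below 0.05. Slc7a11 and Atf3 lie above 2, and the 6 called synthetases lie between 0.30 and 0.51; the horizontal axes differ.

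The wider list of Xbp1 and Atf6 targets held calls in both directions, in neither more often than all genes tested. Of 48 measured of 54 genes, 4 rose and 2 fell, against 8.42% and 9.39% of all genes, with a median of 0.04. With centred arrays 2 rose and 5 fell, and with quantile normalization 3 rose and 5 fell. Without a trend in limma 2 rose and 1 fell, and without both knockout replicate 3 arrays 2 rose and 2 fell. The count of 6 calls was 2 without replicate 2 of knockout VILI, of wild type VILI or of wild type SB, and 3 without replicate 3 of knockout VILI, replicates 1 or 3 of wild type VILI or replicate 3 of wild type SB. Sec24d, a coat protein of vesicles leaving the ER, rose by 0.40 (SE 0.09, adjusted p = 0.0163), and Sec61a1, the channel of the translocon, by 0.27 (adjusted p = 0.0230). Hspa13 (0.24, adjusted p = 0.0478) and Srp19 (0.22, adjusted p = 0.0429), a part of the signal recognition particle, were called narrowly and lost the call in 10 of 12 fits without 1 array. Pdia5, a disulfide isomerase, fell by 0.62 (SE 0.15, adjusted p = 0.0172) and stayed called without any one array, and P4hb, another isomerase, fell by 0.19 (adjusted p = 0.0419), a call lost in 10 of 12 such fits. Pdia5 read 7.86, 7.42 and 7.22 in knockout VILI, against 8.47, 8.40 and 8.40 in knockout SB, and 8.13, 7.96 and 7.63 in wild type VILI, against 7.82, 8.47 and 8.39 in wild type SB. In knockout each VILI array lay below each SB array, and in wild type replicate 1 of SB lay among the VILI arrays.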

How the data were processed

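Total RNA from 12 lungs was labelled with biotin and hybridised to 1 Affymetrix array each, with 3 arrays per group. The authors deposited 1 table of normalized log2 values per probe set. MAS5 and GCRMA are listed in the submitters' processing notes, with no role given, and scanner values were not used here. Precision is limited by the number of arrays.

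Of 45037 probe sets that are not controls, the platform annotation gave 34945 a single gene symbol, 932 more than one and 9160 none; 34741 were matched to RefSeq (GRCm38.p6). A probe set was kept if it exceeded its array's median on at least 3 of 12 arrays (23082 probe sets). Each gene was represented by whichever kept probe set was brightest on average over the 12 arrays, giving 10996 genes. limma 3.58.1 in R 4.3.3 was fitted to all 12 arrays with a mean per group and empirical Bayes with a trend. P-values were adjusted by Benjamini-Hochberg over all genes, with a threshold of 0.05. The fit was also run on simulated data with independent noise for each gene and array. That setting cannot show how outlying arrays or shifts in cell mix act on the calls. Replicates are separate mice per the labels' design text, and p-values measure the spread between these arrays.

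The 33 genes and all lists were chosen with earlier results of these data known, so their counts are not independent support. All 33 genes may be named, and of the other lists up to 5 called rises and 5 called falls, largest first. Alternatives were no filter, a stricter filter (6 of 12 arrays), the mean of probe sets, every probe set on its own, centring, quantile normalization, no trend, only the groups compared, a replicate block and leaving out each array. Leaving out both knockout arrays numbered 3 was added after seeing the data. Same-numbered arrays were compared by the correlation of their deviations from group means. All 3 pairs exceeded 0.1 for knockout SB with wild type SB (0.23, 0.53 and 0.32). The labels state no pairing, so arrays were treated as unpaired in the main fit. With a replicate block the count there was also 0. In no other comparison did every pair exceed 0.1.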

Additional observations from a re-analysis of the deposited data

How the results depend on the processing

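The 6 calls averaged over genotypes kept their direction in the 9 alternatives and 12 leave-one-out fits, and Atf4, Asns, Mthfd2, Psat1 and Slc7a1 also kept their calls. Their count was 7 with every probe set on its own and 8 with centring or quantile normalization. The count in wild type, 0, was 1 with only the groups compared and 1 without both knockout arrays numbered 3. The count in knockout, 5, was 2 with no filter, 0 with only the groups compared and 0 without both knockout arrays numbered 3. The last 2 fits held fewer arrays, and the cause of the lower counts was not tested. Over all genes, calls in knockout numbered 491, but 306 with no filter, 11 with only the groups compared and 110 without both arrays; in wild type they numbered 290, but 475 and 653 in those last 2 fits. Leaving out 1 array gave 5 to 8 calls averaged over genotypes, 0 to 1 in wild type, 0 to 6 in knockout, 0 to 0 for the interaction, and, for knockout against wild type, 0 to 0 in SB, 0 to 1 after VILI and 0 to 0 averaged. The Atf4 arm median ranged from 0.51 to 0.75 averaged over genotypes, 0.10 to 0.48 in wild type, 0.65 to 1.05 in knockout and 0.28 to 0.71 for the interaction. The Xbp1 and Atf6 arm median ranged from -0.11 to 0.02 averaged, -0.10 to 0.12 in wild type, -0.23 to 0.04 in knockout and -0.31 to -0.03 for the interaction, so its sign turned in the first 3.

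With the replicate block, 7 genes were called averaged over genotypes (6 higher and Herpud1 lower, -0.25, adjusted p = 0.0312), 0 in wild type, 5 in knockout, and 0 for the interaction and each comparison of knockout with wild type. By the labels, arrays of different groups share only a number, in SB as elsewhere. That 9 of 12 arrays correlated best with their own number is a hint from the data and not the design.

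Of 31 called gene values, 0 changed sign in any alternative. Of 4747 recomputed values of uncalled members, 228 had the other sign and 19 passed the threshold. Signal close to the array medians, as for Slc7a11 in SB and Mthfd2 on replicate 3 of wild type SB, limits these folds.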

Other observations

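Several cell marker lists held calls for VILI averaged over genotypes (limma, adjusted over all genes, of which 8.42% rose and 9.39% fell). Of 12 measured neutrophil markers 10 rose and 0 fell, with a median change of 2.86. Of 12 endothelial markers 6 fell, with a median of -0.28, of 9 type II epithelial markers 3 fell (median -0.20) and of 7 club cell markers 3 fell (median -0.20). Of 8 macrophage markers 1 rose (median 0.06), and of 9 B cell and plasma cell markers 0 were called and 0 had an unadjusted p below 0.05, against 33.9% of all genes. Their part in the changes of the 33 genes was not tested.

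Replicate 2 was the highest SB array for Atf3, Gadd45a and Atf4 in both genotypes. For Atf3 it read 8.30 in knockout SB, against 6.40 and 6.51 on the other knockout SB arrays, and 9.26 in wild type SB, against 5.76 and 6.13. For Gadd45a it read 6.15 in knockout SB, against 4.87 and 4.58, and 9.51 in wild type SB, against 8.62 and 8.69. For Atf4 it read 11.47 in knockout SB, against 11.35 and 10.64, and 11.64 in wild type SB, against 10.83 and 11.29. The mean of the whole Atf4 arm was also highest on replicate 2 among the SB arrays, at -0.20 in knockout and -0.05 in wild type. Some genes of the arm did not follow, such as Psat1, which was lowest on replicate 2 in knockout SB (6.77).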
